A study of Mus musculus with 6 samples.

Results

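Gas5 is a mouse non-coding host gene whose introns carry small nucleolar RNAs (snoRNAs). The members described here are every row of the deposited non-coding RNA count table whose transcript identifier lies, in GENCODE release M21 (GRCm38), on the plus strand of the Gas5 locus of chromosome 1. They span chr1:161034422-161038539. They number 35 of the 5880 rows of the table, and are 25 Gas5 isoforms and 10 snoRNA rows. The snoRNA rows stand for 9 distinct snoRNAs, since Snord80-202 lies wholly inside Snord80-201.

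The study sequenced small RNA from exosomes, the small vesicles that cells release into their medium. It set undifferentiated P19 cells (UD-P19, replicates 1 to 3) against P19 neurons (P19N, replicates 4 to 6) to find non-coding RNAs that differ between their exosomes. UD-P19 cells were grown with serum and then kept in serum-free alpha-MEM with N2 supplement before collection, while P19N were derived from the same cells by retinoic acid for 4 days and then kept in neurobasal medium with glutamine, B27 and N2. The labels state that no drug was given, but the methods add 5-fluorouridine with uridine, which stops proliferation, to the P19N cultures only. It was given on day 3 and again on day 8, after the day-8 medium was collected, so repeated exposure goes with culture age among P19N libraries. P19 is 1 embryonal carcinoma line, and the 3 P19N libraries came from cultures 8, 10 and 12 days old (replicates 4, 5 and 6). Medium, retinoic acid, 5-fluorouridine, culture age and cell state cannot be told apart between the groups.

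Box C/D snoRNAs are short RNAs that guide the addition of methyl groups to ribosomal RNA. They are cut from introns after splicing, and their ends are protected by bound proteins, so that they outlast the rest of the intron. Their host Gas5 is known for accumulating in growth-arrested cells, and its spliced RNA is degraded when it is translated. Within cells snoRNAs are known as residents of the nucleolus.

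All 9 snoRNAs lay in introns of Gas5. With introns numbered on Gas5-224, an isoform of 12 exons annotated as a lincRNA, Gm26224 was in intron 1, Gm22489 in intron 2, Gm22357 in intron 3, Gm23212 in intron 5, Snord78 in intron 6, Mir5117 in intron 8, Snord80 in intron 9, Snord47 in intron 10 and Gm25789 in intron 11. Introns 4 and 7 held no snoRNA row. The snoRNAs ended 65 to 78 bases before the next exon, except Gm26224 at 278 bases and Snord80 at 313 bases. The row named Mir5117 is a transcript of 84 bases annotated as a snoRNA, and it was not treated as the microRNA of that name. Whether reads of that microRNA are among its counts was not tested.

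The 8 snoRNAs with at least 15 counts over the 6 libraries are printed below 5′ to 3′ from the transcript sequences of GENCODE M21, because nearly all counts of the locus fall on rows that hold them. Capitals mark the letters TGATG where they occur within the first 20 bases (box C) and CTGA where it occurs within the last 15 bases (box D), searched on the RNA strand only. All 10 snoRNA rows of the locus held both, and so did 55.1% of the 595 other snoRNA rows of the table. The match is a description of the letters and not of a binding site.
Gm26224, chr1:161035394-161035473, 80 bases: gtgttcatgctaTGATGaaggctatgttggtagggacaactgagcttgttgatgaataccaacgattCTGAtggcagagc
Gm22489, chr1:161035850-161035911, 62 bases: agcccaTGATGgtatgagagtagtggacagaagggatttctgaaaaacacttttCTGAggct
Gm22357, chr1:161036057-161036139, 83 bases: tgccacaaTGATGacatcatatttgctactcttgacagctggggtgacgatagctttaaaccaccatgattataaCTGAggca
Gm23212, chr1:161036682-161036741, 60 bases: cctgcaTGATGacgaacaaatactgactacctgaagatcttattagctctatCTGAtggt
Mir5117, chr1:161037356-161037439, 84 bases: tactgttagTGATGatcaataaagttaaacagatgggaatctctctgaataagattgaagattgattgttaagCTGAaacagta
Snord80-201, chr1:161037601-161037681, 81 bases: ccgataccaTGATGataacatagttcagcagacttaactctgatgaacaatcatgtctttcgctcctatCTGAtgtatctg
Snord47, chr1:161038082-161038158, 77 bases: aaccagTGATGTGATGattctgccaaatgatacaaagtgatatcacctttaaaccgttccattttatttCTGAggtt
Gm25789, chr1:161038308-161038383, 76 bases: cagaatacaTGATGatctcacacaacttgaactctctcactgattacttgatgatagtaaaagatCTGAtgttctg

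The libraries held 454499 to 887460 counts, and the locus took 0.420% to 0.806% of them. UD-P19 replicate 2 stood apart from the other UD-P19 libraries. The summed level of a list of neuronal non-coding genes was 201 CPM in it (counts scaled to the library total, with TMM normalization throughout), against 26.9 and 47.9 CPM in UD-P19 replicates 1 and 3 and 102 to 141 CPM in P19N exosomes. For that list 9 of 11 genes were in the table, mostly through Meg3 and Rian. The neuronal microRNA hairpins Mir9-1, Mir9-2, Mir9-3 and Mir124a-3 had 0 counts in every UD-P19 library and at most 2 in a P19N library. Of the pluripotency list, 5 of 11 genes were in the table. They held 3, 14 and 1 counts in UD-P19 replicates 1 to 3 and 0 to 2 in P19N libraries. UD-P19 replicate 2 was the highest on this list as well, also in CPM (16.5, against 7.35 and 1.65 in replicates 1 and 3). None of the 7 markers of other cells was in the table. In such bulk samples fewer vesicles of a kind and less RNA per vesicle cannot be told apart.

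Nearly all counts at Gas5 were on rows that hold a snoRNA. The locus held 23678 counts in all, of which the snoRNA rows took 7411 (31.3%) and the 16 isoforms that hold at least 1 whole snoRNA took 16215 (68.5%). The other 9 isoforms together took 52 counts, or 0.220% (exact 95% binomial interval 0.164% to 0.288%, for counting error only). The 5 isoforms annotated as lincRNA, whose exons leave out every snoRNA (Gas5-203, Gas5-209, Gas5-210, Gas5-217 and Gas5-224), held 0, 2 and 1 counts in UD-P19 replicates 1 to 3 and 2, 3 and 2 in P19N replicates 4 to 6. Gas5-201, Gas5-213 and Gas5-220, which retain intron 4 and no snoRNA, held 2, 3 and 3 counts over all libraries, and Gas5-205, Gas5-212 and Gas5-219, which hold Snord78 alone, held 11, 13 and 8. The rows of the fully spliced host were thus close to the limit of detection in both groups, and no difference in them was detectable at this depth. How reads of exons shared with other isoforms were counted is not stated, so these rows may not hold all reads of the spliced host.

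**Figure D1:**
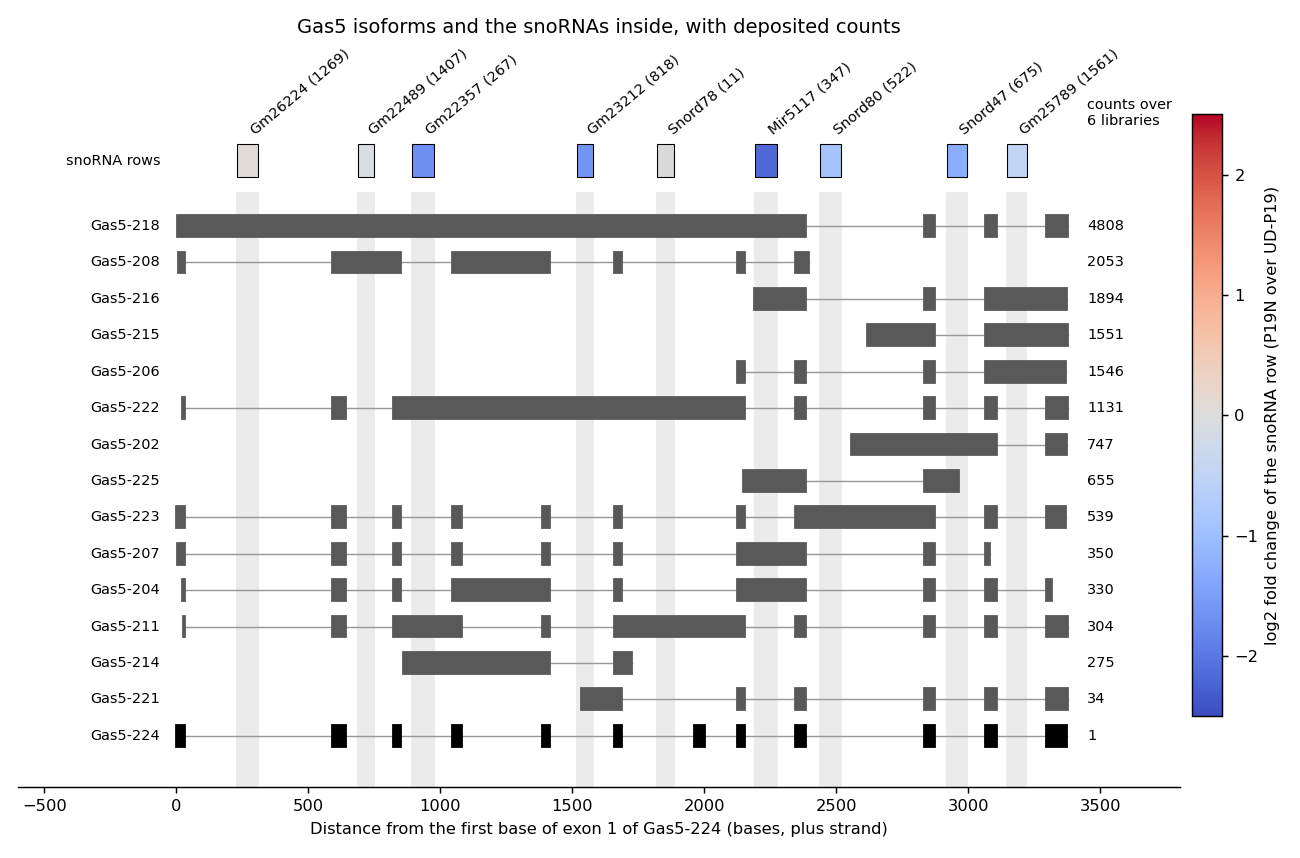
Map of the Gas5 locus, with the distance from the first base of exon 1 of Gas5-224 on the x axis. Coloured boxes are snoRNAs (colour is the log2 fold change of the row, grey for Snord78, which was not tested), dark boxes are exons of each isoform that was tested and of Gas5-224 (black), and numbers are counts over the 6 libraries. Isoforms with high counts have exons that run across a snoRNA, while Gas5-224, which skips all of them, held 1 count.

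An isoform that holds a snoRNA had the count of that snoRNA. A whole snoRNA lay in 13 of the tested isoforms, and in 10 of these 13 the total count was 0.951 to 1.11 times the sum of the snoRNA rows inside. Gas5-204, a retained-intron isoform with Mir5117 as its only whole snoRNA, held 88, 58 and 106 counts in UD-P19 and 35, 23 and 20 in P19N exosomes, where Mir5117 itself held 94, 64 and 106, then 38, 26 and 19. Gas5-215 held 203, 288 and 309, then 269, 228 and 254 counts, against 204, 278 and 321, then 262, 233 and 263 at Gm25789, its only snoRNA. Across all 60 pairs of these 10 isoforms and 6 libraries, the gap was at most 27 counts. Such rows share their reads, so that a change of 1 snoRNA appears in each isoform around it and the rows are not independent.

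The reads of the locus could not be given to 1 row. The unique counts, which were read as reads matching a single transcript, summed to 3, 13 and 6 in UD-P19 and 7, 3 and 5 in P19N libraries over the whole locus. All of them were at Gas5-202 (25 of its 747 counts) and Gas5-218 (12 of its 4808 counts). Each of the 9 snoRNA rows with at least 15 counts had 0 unique counts, as did 178 of 416 other snoRNA rows (42.8%). Among the 5773 rows with a sequence, none outside the locus holds the whole of any of these snoRNAs. The other 107 rows, and partial or mismatched matches, were not searched.

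**Figure D2:**
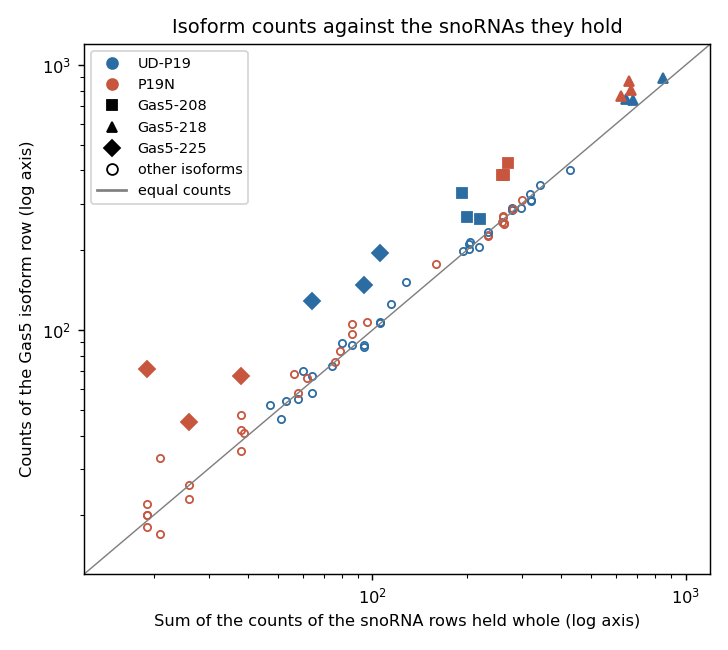
Counts of each tested isoform (y axis, log scale) against the summed counts of the snoRNA rows it holds whole (x axis, log scale), with 1 point per isoform and library, blue for UD-P19 and red for P19N. Open circles, the 10 isoforms with total ratios of 0.951 to 1.11, lie along the line of equal counts, while Gas5-208, Gas5-218 and Gas5-225 lie above it.

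A further 3 isoforms had more counts than their whole snoRNAs. Gas5-225 held 655 counts against 347 at Mir5117, and it also ends inside Snord47, sharing 44 of its 77 bases. Gas5-208 held 2053 counts against 1407 at Gm22489, its only snoRNA. Gas5-218, the longest isoform with 6 whole snoRNAs, held 4808 against 4119. The excess at Gas5-208 was 66, 135 and 42 counts in UD-P19 and 157, 124 and 122 in P19N libraries, or 130 ± 52.7 and 173 ± 10.7 CPM (SD, n = 3). At Gas5-218 it was 55, 100 and 46, then 208, 146 and 134 counts, or 110 ± 30.3 and 208 ± 31.8 CPM. At Gas5-225 it was 54, 65 and 89, then 29, 19 and 52 counts, or 119 ± 37.0 and 43.8 ± 25.1 CPM. The mean excess in CPM was smaller in P19N than in UD-P19 at Gas5-225 and larger at Gas5-208 and Gas5-218, and these differences were not tested. Gas5-208 and Gas5-218 both retain introns 2 and 4, and Gas5-222, which retains intron 4 but not intron 2, had an excess of 0, -14 and 8, then 19, 4 and 18 counts. The files do not say where along a row a read lay.

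Between the groups, snoRNAs and isoforms of the locus were lower in P19N exosomes or did not pass the test, and none was higher, also at an unadjusted p under 0.05 and in DESeq2's Wald test. Of 23 rows with at least 15 counts, 8 were lower by edgeR's quasi-likelihood test with Benjamini-Hochberg adjustment over 1286 rows (adjusted p at most 0.05), or 34.8%. Of all tested rows 24.0% were called in either direction, 9.02% lower and 15% higher. The count at the locus was 2 without P19N replicate 5, 3 without P19N replicate 4, 5 without UD-P19 replicate 1 or 3 and 5 with scaling by total counts alone. Lower calls over all 1286 rows moved as well, from 116 to 52 without P19N replicate 5 and 62 without P19N replicate 4. They were 102 without UD-P19 replicate 1, 157 without UD-P19 replicate 3 and 90 with total counts alone. With DESeq2's size factors 11 rows of the locus were lower, but so were 189 of all rows in place of 116. The 8 rows are the snoRNAs Mir5117, Gm23212 and Gm22357 and 5 isoforms that each hold at least 1 of these, among them Gas5-225 with its counts beyond Mir5117. The CPM of the groups did not overlap at 13 tested rows of the locus, all with P19N below UD-P19, where 16.8% of all tested rows were below and 25.2% above. The median log2 fold change (P19N over UD-P19) was -1.20 over the 23 rows, -0.98 over the 9 tested snoRNA rows, and 0.21 over all tested rows.

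**Figure D3:**
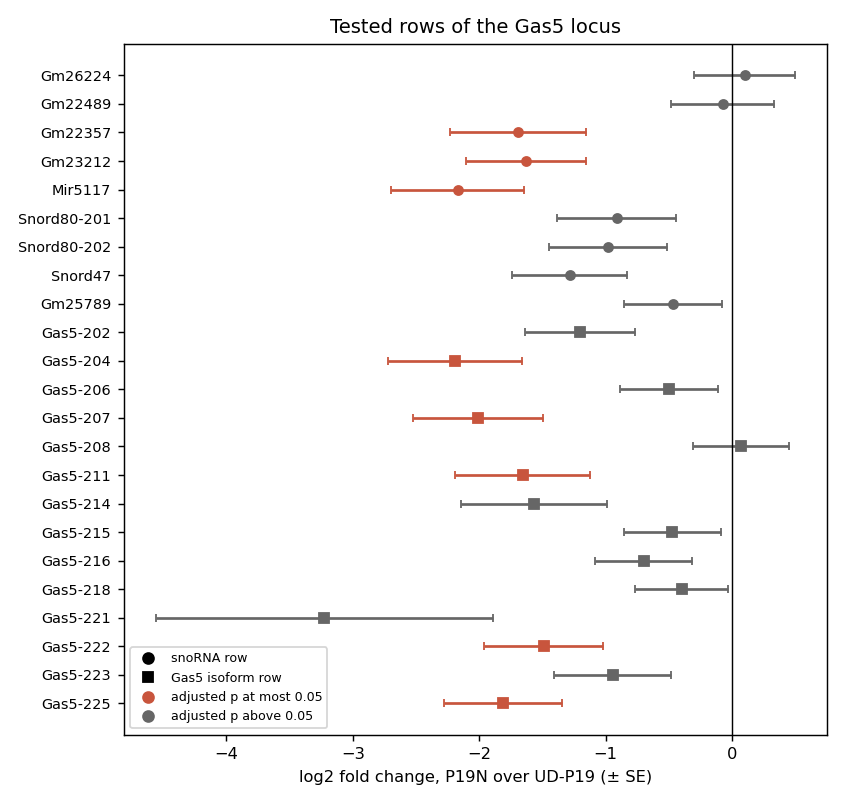
log2 fold change (P19N over UD-P19) of the 23 tested rows of the locus with its standard error, circles for snoRNA rows in order along the gene and squares for Gas5 isoforms, red where the adjusted p is at most 0.05. The red rows lie between -2.19 and -1.49, and Gas5-221 has the widest error (SE 1.33).

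Mir5117, the snoRNA of intron 8, fell furthest among the 9 tested snoRNA rows with all libraries in the fit. This order depended on 1 library, since without P19N replicate 6 Gm22357 (-2.45) and Gm23212 (-2.40) were below Mir5117 (-2.31). The counts of Mir5117 were 94, 64 and 106 in UD-P19 and 38, 26 and 19 in P19N exosomes, or 160 ± 78.3 and 35.1 ± 9.14 CPM (SD, n = 3). Every P19N library was below every UD-P19 library, and UD-P19 replicate 2 was the lowest of its group. The log2 fold change was -2.17 (SE 0.528, 95% interval -3.29 to -1.05; adjusted p = 0.00684 in edgeR's quasi-likelihood test). It passed the threshold in all 17 alternatives that gave it a value, with adjusted p up to 0.0465. Its host isoforms Gas5-204 (-2.19), Gas5-207 (-2.01) and Gas5-225 (-1.81, with its part of Snord47) were lower as well, and are not independent of it. The calls of Gas5-207 (without P19N replicate 5) and of Gas5-225 (without P19N replicate 4 or 5) were lost with 1 library left out. Gas5-216 and Gas5-218, which also hold Mir5117 but hold more abundant snoRNAs beside it, had -0.70 and -0.40 and did not pass the test.

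Mir5117 also differed from its neighbours in how its reads matched. The exact counts, which were read as reads without a mismatch, made up 30.8% of its counts (107 of 347, exact 95% binomial interval 26.0% to 36.0%), and 68.3% to 81.4% at the other tested snoRNA rows. By library the exact share was 22.3%, 53.1% and 22.6% in UD-P19 and 34.2%, 30.8% and 36.8% in P19N exosomes. UD-P19 replicate 2 was the highest, and the groups overlapped. Over the whole locus the exact share was 68.7%, 70.8% and 73.2% in UD-P19 and 77.9%, 77.3% and 78.6% in P19N libraries, without overlap. The unique share of all counts of a library was 62.1% to 78.0% in UD-P19 and 32.1% to 38.5% in P19N libraries, and the part of these shifts in the results was not tested. Gas5-204 and Gas5-207, which hold Mir5117 as their only snoRNA, had exact shares of 32.4% and 30.6%. On exact counts alone Mir5117 was again lower in P19N, at -1.96 on the log2 scale (SE 0.484, adjusted p = 0.0048 in the same edgeR test), in a fit that called 37.4% of the rows it tested (17.5% lower, 19.9% higher).

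Gm23212, the snoRNA of intron 5, was also lower in P19N exosomes. It had 174, 166 and 232 counts in UD-P19 and 65, 60 and 121 in P19N exosomes, or 335 ± 122 and 108 ± 52.3 CPM (SD, n = 3). The groups did not overlap, and the 12-day P19N library was above the 8-day and 10-day libraries. The log2 fold change was -1.63 (SE 0.477, adjusted p = 0.0197, edgeR). The call was lost without UD-P19 replicate 1 or 3 or P19N replicate 4 or 5 (adjusted p 0.0581 to 0.138, edgeR), and without P19N replicate 6 the value was -2.40.

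Gm22357, the snoRNA of intron 3, moved in a like manner at a lower level. Its counts were 58, 51 and 80 in UD-P19 and 21, 19 and 38 in P19N exosomes, or 111 ± 44.6 and 34.2 ± 16.2 CPM (SD, n = 3). Again the groups did not overlap and the 12-day library was the highest of the P19N libraries. The log2 fold change was -1.70 (SE 0.535, adjusted p = 0.0288, edgeR). This call was lost in the same 4 cases (adjusted p 0.0727 to 0.169, edgeR) and with scaling by total counts alone (0.0687), and without P19N replicate 6 the value was -2.45. The isoforms Gas5-222, which holds Gm22357 and Gm23212, and Gas5-211, which holds Gm22357, were lower with log2 fold changes of -1.49 and -1.66, and lost their calls in the same cases. The groups overlapped in CPM at Gas5-222, where UD-P19 replicate 2 (242 CPM) was below P19N replicate 6 (248 CPM), and not at Gas5-211. Without P19N replicate 6 these were -2.25 and -2.31.

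**Figure D4:**
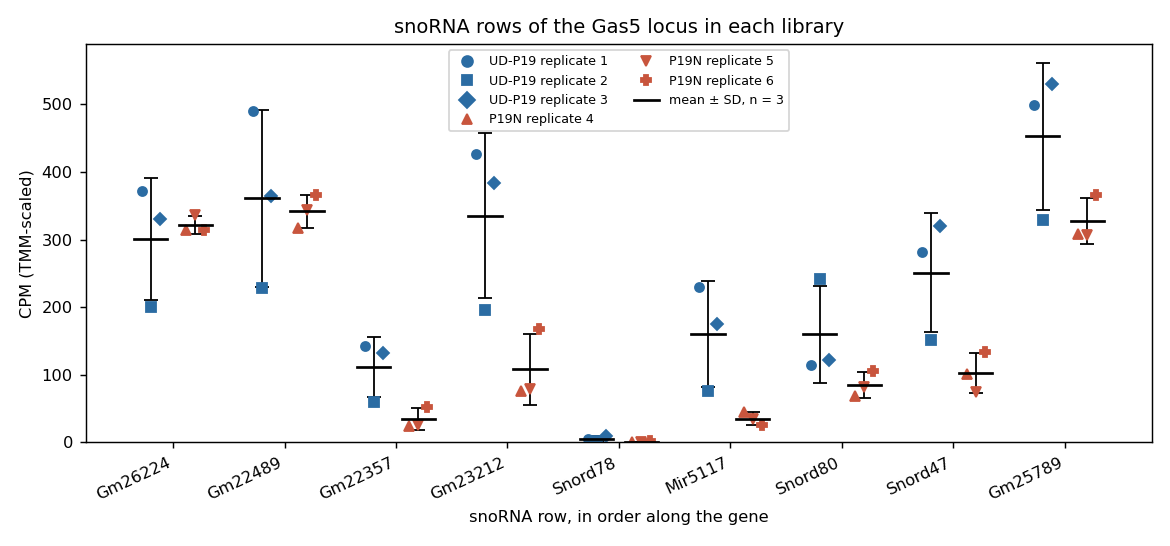
CPM of the 9 distinct snoRNAs in each library (y axis, linear), in order along the gene, blue for UD-P19 and red for P19N, with symbols for replicates and black bars for mean and SD (n = 3). The P19N points lie below all UD-P19 points for Gm22357, Gm23212, Snord78, Mir5117, Snord80 and Snord47, and among the UD-P19 points for Gm26224 and Gm22489.

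Snord47, a box C/D snoRNA of intron 10, narrowly missed the threshold. It had 115, 128 and 194 counts in UD-P19 and 86, 56 and 96 in P19N exosomes, or 251 ± 88.5 and 103 ± 29.9 CPM (SD, n = 3), with no overlap of the groups in CPM. The log2 fold change was -1.28 (SE 0.455, adjusted p = 0.0508, edgeR), and it passed the threshold in 9 of 17 alternatives, among them those without UD-P19 replicate 2 (-1.55) and without P19N replicate 6 (-1.83). Gas5-202, which holds Snord47 alone, had -1.20 (adjusted p = 0.0558) and passed in 7 of 18 alternatives.

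Snord80, a box C/D snoRNA of intron 9, had 47, 205 and 74 counts in UD-P19 and 58, 62 and 76 in P19N exosomes. UD-P19 replicate 2 was above the other 5 libraries in CPM as in counts. The log2 fold change of Snord80-201 was -0.91 (SE 0.468, adjusted p = 0.159, edgeR), and without UD-P19 replicate 2 it was -0.48 (adjusted p = 0.28). The nested row Snord80-202 (49, 212 and 78, then 58, 60 and 77 counts) and the isoform Gas5-223 (52, 214 and 73, then 58, 66 and 76) had the same pattern. Snord78, of intron 6, had 2, 2 and 6, then 0, 0 and 1 counts, and was too low to test.

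Gm26224, Gm22489 and Gm25789, the snoRNAs with the highest row counts, showed no difference that passed the test. Gm25789, of intron 11 and nearest the 3′ end, had 204, 278 and 321 counts in UD-P19 and 262, 233 and 263 in P19N libraries, and its log2 fold change was -0.47 (95% interval -1.29 to 0.36, adjusted p = 0.382, edgeR). Gm22489, of intron 2, had 200, 193 and 221, then 270, 260 and 263 counts, with -0.07 (95% interval -0.94 to 0.79), and 0.12 with scaling by total counts alone. Gm26224, of intron 1, had 152, 169 and 200, then 267, 255 and 226 counts, with 0.10 (95% interval -0.75 to 0.95), and -0.07 with DESeq2's size factors. The groups overlapped in CPM for each of the 3. The intervals of Gm22489 and Gm26224 reach as low as -0.94 and -0.75, so a fall smaller than that of Mir5117 is not excluded for them.

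Gas5-221, whose first exon takes 47 of the 60 bases of Gm23212, rested on 1 library. It had 0, 31 and 0 counts in UD-P19 and 1, 0 and 2 in P19N exosomes. Its log2 fold change of -3.23 (SE 1.33, adjusted p = 0.0939, edgeR) became 2.98 (adjusted p = 0.309) without UD-P19 replicate 2. Beside it and Gas5-202, Gas5-216, Gas5-218 and Gas5-223, given above, the isoforms that did not pass were Gas5-206 (-0.50) and Gas5-215 (-0.47), which hold Gm25789, Gas5-208 (0.07, and -0.10 with DESeq2's size factors), which holds Gm22489, and Gas5-214 (-1.56, adjusted p = 0.0603), which holds Gm22357. Gas5-223 had -0.95 (adjusted p = 0.145). Gas5-214 passed in 9 of 17 alternatives, and was at -2.56 without P19N replicate 6.

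Summed over the locus the fall was smaller than that of the called rows. The snoRNA rows together were at 2682, 1735 and 2496 CPM in UD-P19 and 1322, 1360 and 1642 CPM in P19N exosomes, a log2 ratio of the means of -0.68, and -1.09 without P19N replicate 6. The isoform rows together were at 6294, 3505 and 5551 CPM in UD-P19 and 3060, 2923 and 3547 CPM in P19N exosomes, with UD-P19 replicate 2 below P19N replicate 6, so that the groups overlapped. Their means of 5117 and 3177 CPM gave a log2 ratio of -0.69, and -1.08 without P19N replicate 6. The snoRNA rows took 31.3% of the counts of the locus in UD-P19 and 31.2% in P19N exosomes. Isoform rows share reads with the snoRNA rows inside them, as given above. The sums are therefore not independent, and this split does not compare the host with its snoRNAs. UD-P19 replicate 2 lay nearest to the P19N libraries in summed CPM.

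How the authors' software counted a read that matches several rows is not stated. In 21 of the 60 pairs above the isoform had fewer counts than the snoRNA rows inside it. On the assumption that reads were divided equally, the level of a snoRNA was estimated from its row count. The count was multiplied by the number of rows that hold the snoRNA whole (2 for Gm26224 and Snord47, 7 for Snord78). For Snord80 the number was 3, with the nested row Snord80-202 counted, although that row has 77 bases against 81 of Snord80-201. The levels and their order rest on equal division and, for Snord80, on counting the nested row. They leave out the excess at Gas5-208, Gas5-218 and Gas5-225. Per 100 bases of snoRNA in UD-P19 exosomes, the estimated levels ran from Gm25789 (2383 ± 571 CPM, SD, n = 3) through Gm22489 (1746 ± 633), Gm23212 (1676 ± 611), Mir5117 (1145 ± 559), Gm26224 (752 ± 225), Gm22357 (671 ± 269), Snord47 (652 ± 230) and Snord80 (592 ± 265) to Snord78 (60.7 ± 40.7). The ranges of mean ± SD of neighbours in this order overlapped, except those of Snord80 and Snord78. In P19N exosomes Gm25789 (1721 ± 177 CPM) and Gm22489 (1655 ± 118) led and did not differ beyond their spread, followed by Gm26224 (804 ± 32.2). Gm23212 (540 ± 262), Snord80 (316 ± 70.5), Snord47 (267 ± 77.7), Mir5117 (251 ± 65.3) and Gm22357 (206 ± 97.4) overlapped with their neighbours, and Snord78 (4.92 ± 8.52) was last.

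The makeup of the snoRNA pool within each library needs no scaling between libraries. As a share of the estimated snoRNA counts of the locus, Gm26224 took 8.73%, 8.34% and 8.45% in UD-P19 and 16.4%, 17.3% and 13.3% in P19N exosomes. Gm22489 took 15.2% ± 1.79 and 24.8% ± 1.57, and Gm25789 26.0% ± 2.23 and 31.6% ± 0.514 (SD, n = 3). These shares were higher in every P19N library than in any UD-P19 library. The share of Mir5117 was 16.2%, 9.48% and 13.4% in UD-P19 and 6.98%, 5.29% and 3.37% in P19N exosomes. Gm23212 had 14.0% ± 1.49 and 7.60% ± 2.70, Gm22357 7.69% ± 1.21 and 4.01% ± 1.38, and Snord47 7.04% ± 1.01 and 4.91% ± 0.986 (SD, n = 3). UD-P19 replicate 2 was on the UD-P19 side of the P19N libraries in each of these 7 shares, but for Mir5117, Gm23212 and Gm22357 it lay nearer to a P19N library than to another UD-P19 library.

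**Figure D5:**
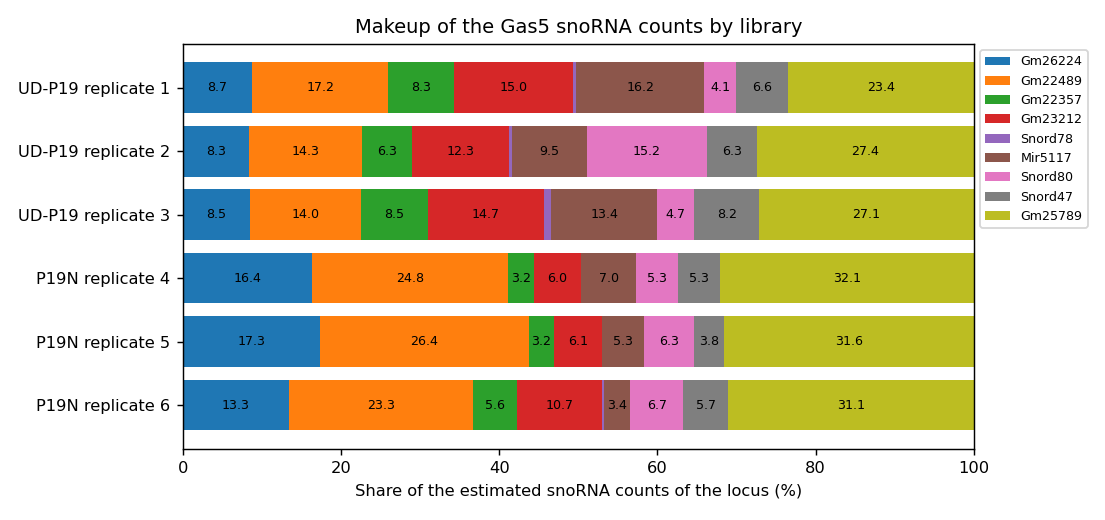
Share of each snoRNA in the estimated snoRNA counts of the locus (x axis, percent), 1 bar per library, with the colours in order along the gene. Gm26224, Gm22489 and Gm25789 take a larger part of each P19N bar, Mir5117, Gm23212 and Gm22357 a smaller part, and Snord80 takes 15.2% in UD-P19 replicate 2 alone.

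The groups did not overlap for 8 of the 9 shares. For each of the 8 an exact permutation test (two-sided) gave p = 0.1, which 3 libraries against 3 cannot go below. From the snoRNA rows alone, with no multiplication by the number of holding rows, the groups again did not overlap for 8 of the 9 shares, and all 9 differences had the same direction. In CPM of single rows, 42.0% of all tested rows did not overlap in either direction. No such rate was computed for shares within other loci, so this is not a baseline for the 8 of 9 shares. The exception in both sets of shares was Snord80. With 3 rows counted as above, its estimated share was 4.05%, 15.2% and 4.69% in UD-P19 and 5.33%, 6.30% and 6.73% in P19N exosomes. The shares of a library sum to the whole, so a rise in one is a fall in others, and they do not show which snoRNA changed in amount.

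Other snoRNAs and snoRNA hosts were called in both directions, with counts that depended on single libraries, as did those over all tested rows. Of 416 other snoRNA rows tested, 75 were higher (18.0%) and 45 lower (10.8%) in P19N exosomes, with a median log2 fold change of -0.05. Of 47 tested rows of other lncRNA hosts, 5 were higher and 3 lower. The higher rows were Snhg20-201 (2.96), Snhg20-203 (2.94), Snhg14-206 (2.05), Snhg14-214 (1.74) and Snhg1-208 (1.84), and the lower rows were Snhg8-202 (-1.69), Snhg12-208 (-1.94) and Snhg12-210 (-1.72). Without UD-P19 replicate 2, 106 snoRNA rows were higher and 99 lower, and 5 host rows were higher and 16 lower. Without P19N replicate 6 the snoRNA rows were 41 higher and 55 lower, and the host rows 3 higher and 7 lower. Without P19N replicate 5 they were 31 and 16, and 3 and 0, and without P19N replicate 4 they were 48 and 21, and 3 and 0. Without UD-P19 replicate 3 they were 34 and 33, and 3 and 1, and without UD-P19 replicate 1 they were 49 and 32, and 4 and 1. Calls over all 1286 rows were 330 higher and 200 lower without UD-P19 replicate 2, and 146 and 136 without P19N replicate 6. They were 121 and 52 without P19N replicate 5, and 139 and 62 without P19N replicate 4. Leaving out UD-P19 replicate 3 gave 130 and 157, and leaving out UD-P19 replicate 1 gave 161 and 102.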

How the data were processed

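Small RNA libraries of 3 UD-P19 and 3 P19N exosome preparations were compared, with 1 library for each. After adaptor trimming and merging of read pairs, the authors matched reads to the GRCm38 non-coding RNAs in CLC Genomics Workbench with default settings, and deposited counts per transcript without normalization. Deposited columns of unique and exact counts are not defined in the sources used here. How reads that match several rows were divided is not stated. The deposited group means (a signal without normalization), fold changes as ratios, and p-values with FDR of the authors' comparison were not used. The study calls the libraries biological replicates from independent exosome preparations. P19N medium was collected repeatedly from day 8 on, and whether the 3 ages share flasks is not stated, so p-values measure the spread between these preparations.

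Identifiers were matched to GENCODE M21, which paired 5773 of 5880 rows. Rows with at least 15 counts in total (1286) were tested with edgeR 4.0.16 (TMM normalization, quasi-likelihood F test, Benjamini-Hochberg adjustment) in R 4.3.3, with the code tested on simulated data. DESeq2 1.42.0 served as an alternative. The exact permutation tests used scipy 1.17.1. Intervals of shares are Clopper-Pearson. Every row of the window was named, and other hosts only where called. The members and lists were chosen with earlier results of these data known. Levels by number of holding rows, the isoform comparison, the exact shares and the snoRNA shares were added after seeing the data. Depth was 454499 to 887460 counts per library, so that 1 count was worth 1.18 to 2.45 CPM.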

Additional observations from a re-analysis of the deposited data

How the results depend on the processing

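All calls at the locus were lower in P19N exosomes under every alternative that made any. The 8 called rows became 13 with a minimum total of 5 counts, 5 with scaling by total counts alone, 4 at an adjusted p of 0.01, 0 on unique counts (edgeR's quasi-likelihood test, 1 row tested, 0 at an unadjusted p under 0.05) and 2 to 12 with 1 library left out (2 without P19N replicate 5, 12 without UD-P19 replicate 2). Lower calls over all tested rows moved too, from 116 of 1286 in the main fit. They were 207 of 2079 with a minimum of 5 counts, where 28 locus rows were tested in place of 23. With total counts they were 90 of 1286, and on unique counts 54 of 510. Leaving out P19N replicate 5 gave 52 lower and 121 higher of 1286, and leaving out UD-P19 replicate 2 gave 200 and 330. The 3 called snoRNA rows became 1 at 0.01, 0 on unique counts (none could be tested) and 1 to 4 with 1 library left out. The 5 isoform calls became 9, 3, 3 and 0 under the same settings (5 counts, total counts, 0.01, unique), 8 on exact counts and 1 to 8 with 1 library left out. The 8 calls among other hosts became 5 (total counts), 14 (DESeq2 Wald test), 0 (unique, edgeR, 3 of 9 rows at an unadjusted p under 0.05), 3 (0.01) and 3 to 21, and the 120 among other snoRNAs 48 (unique), 53 (0.01) and 47 to 205. The summed snoRNA log2 ratio ran from -1.09 to -0.55 with 1 library left out. The cause of these shifts was not tested beyond the number of rows or libraries in each.

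Signs turned only at rows that were not called. Gm26224 was -0.010 with a minimum of 5 counts, -0.067 with DESeq2's size factors, -0.066 in its Wald test and -0.19 to 0.28 with 1 library left out. Gas5-208 was -0.025, -0.099 and -0.098 there, and -0.26 to 0.33. Gm22489 was 0.068 with filterByExpr, 0.12 with total counts, 0.032 with TMM factors computed without Gm42418 and snRNAs, and -0.42 to 0.21. Gas5-221 was -4.43 to 2.98. Over all rows, 193 were higher and 116 lower with TMM, and 178 and 189 with DESeq2's size factors, which moved the median log2 fold change from 0.21 to 0.05. No miRNA hairpin row lay on the plus strand of the window, so that alternative gave no value, and unique counts at the snoRNA rows gave none. No paired analysis was possible because the replicate numbers of the groups (1 to 3 and 4 to 6) are not shared.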
